A study of Macaca mulatta with 51 samples.

Results

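The 9 genes described here encode the receptors for cortisol, the enzymes that restore active cortisol inside cells, and genes that the activated receptor is known to induce. They were taken by symbol from the count table, and all 9 of the 9 were found among its 16033 genes and passed the filter on low counts in both tissues. The receptors are NR3C1 (glucocorticoid receptor, ENSG00000113580) and NR3C2 (mineralocorticoid receptor), and the enzymes are HSD11B1 and H6PD. The response genes are FKBP5, TSC22D3, ZBTB16, KLF9 and SGK1.

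RNA sequencing was performed on punch biopsies of subcutaneous adipose tissue (AT) and gastrocnemius skeletal muscle (SM) of 10 rhesus macaques without diabetes. They were 11 to 22 years old, and 5 were male and 5 female, the females without ovaries. Every group shares diet-induced obesity (DIO), from 2 or more years on a high-fat diet. Native human FGF21, a metabolic hormone, was injected under the skin each day for 12 weeks at rising doses that ended at 1000 ug/kg/day, or at 300 ug/kg/day in 1 animal. Biopsies were taken before the first dose (pre-treatment), at the end of dosing (post-treatment) and after 16 weeks without FGF21 (washout). The authors reported that the animals lost body weight during dosing and were back at baseline weight after washout. There was no group of untreated animals, so time in the study, treatment and the change in weight cannot be told apart. The AT libraries numbered 10, 9 and 8 at these time points, and the SM libraries 6, 8 and 7.

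Cortisol diffuses into cells, where HSD11B1 regenerates it from inactive cortisone with NADPH that H6PD supplies inside the endoplasmic reticulum. NR3C1 waits in the cytoplasm bound to chaperones, moves to the nucleus once it binds cortisol, and switches on genes that include FKBP5, a cochaperone that in turn lowers the affinity of the receptor. In fat the hormone favours adipocyte differentiation and shapes lipid storage, and in muscle it favours protein breakdown and limits glucose use.

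Total counts per library ranged from 15756491 to 23940980 in AT and from 14455195 to 21740711 in SM. Levels are given as CPM, the count of a gene scaled to library size after normalization within the tissue. A gene was called DE (differentially expressed) when edgeR gave adjusted p < 0.05 and the log2 fold change exceeded 0.26 in size. The adipocyte markers present in the table (5 of 8) summed to 10225 CPM or more in every AT library and to at most 1360 CPM in any SM library, while the 8 muscle markers summed to at most 174 CPM in AT. In SM the muscle markers summed to 43613 CPM in the post-treatment library of animal 21189, against a median of 130123 CPM at that time point, and the same library had the highest sum of progenitor and fibroblast markers in SM (8758 CPM). The library identifiers fall into a first, a middle and a last number series that the labels do not explain. SM post-treatment held 5 libraries of the first and 3 of the last series, whereas SM washout held 6 of the last and 1 of the middle series. In AT, 1 animal gave only a pre-treatment library, and in SM, 1 animal gave only a post-treatment library, so that neither animal informs the within-animal comparisons.

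The tissues were first compared before treatment, with both normalized together, to place the members in each tissue. Of the 9 members, 6 differed between AT and SM by edgeR with animal in the model, where 71.3% of all 13797 genes tested did (37.5% higher in AT and 33.7% higher in SM). HSD11B1 ranged from 17.1 to 98.4 CPM in AT and from 1.65 to 9.59 CPM in SM, and was 10.5-fold higher in AT (adjusted p = 2.17e-04), in 6 of 6 animals. Its cofactor enzyme H6PD was higher in SM by 2.78-fold (adjusted p = 2.34e-04). NR3C2 was 2.28-fold higher in SM (adjusted p = 0.00157). Among the response genes, ZBTB16, a zinc finger transcription factor, was 2.90-fold, FKBP5 2.28-fold and KLF9 1.94-fold higher in SM (adjusted p = 1.37e-04, 0.00202 and 4.84e-04). NR3C1 had near-equal means of 187 ± 34.5 CPM in AT (SD, n = 10) and 188 ± 30.1 CPM in SM (SD, n = 6), and its log2 difference was 0.03 ± 0.16 (SE). TSC22D3 and SGK1 also did not pass the test. This comparison turned on the normalization: with library size alone the calls of NR3C2, FKBP5 and KLF9 were lost, and NR3C1, TSC22D3 and SGK1 were called higher in AT, since it moved the members by 0.82 to 0.85 on the log2 scale.

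The effect of dosing in AT was asked by comparing post-treatment with pre-treatment. By edgeR, 0 of 9 members were DE, against a background of 15.5% of the 13367 genes tested, and 2 members had an unadjusted p under 0.05. DESeq2 called 1 member, SGK1 (log2 fold change 0.94, adjusted p = 0.0123), and voomWithQualityWeights of limma called 1, HSD11B1 (-0.67, adjusted p = 0.0354). SGK1, a kinase that promotes sodium and nutrient transport, had a lowest, median and highest level of 24.3, 61.3 and 118 CPM pre-treatment and of 74.2, 95.3 and 281 CPM post-treatment. All post-treatment libraries lay above the pre-treatment median, although the groups overlapped. Its log2 fold change was 0.94 ± 0.32 (SE), with a higher level in 7 of 9 animals, and its adjusted p of 0.0531 by edgeR missed the limit. HSD11B1 was at 21.9, 40.1 and 125 CPM pre-treatment and at 13.7, 28.8 and 72.1 CPM post-treatment, with a fitted log2 value of -0.67 ± 0.28 (SE) and a lower level in 8 of 9 animals (adjusted p = 0.103 by edgeR). The HSD11B1 mean was higher in the middle than in the last identifier series. It was 84.5 against 41.8 CPM pre-treatment and 52.9 against 26.7 CPM post-treatment. Its largest fall, in animal 22130 (-3.19), was from a library of the middle series to one of the last. The other 7 members had fitted log2 fold changes between -0.13 and 0.15.

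**Figure D1:**
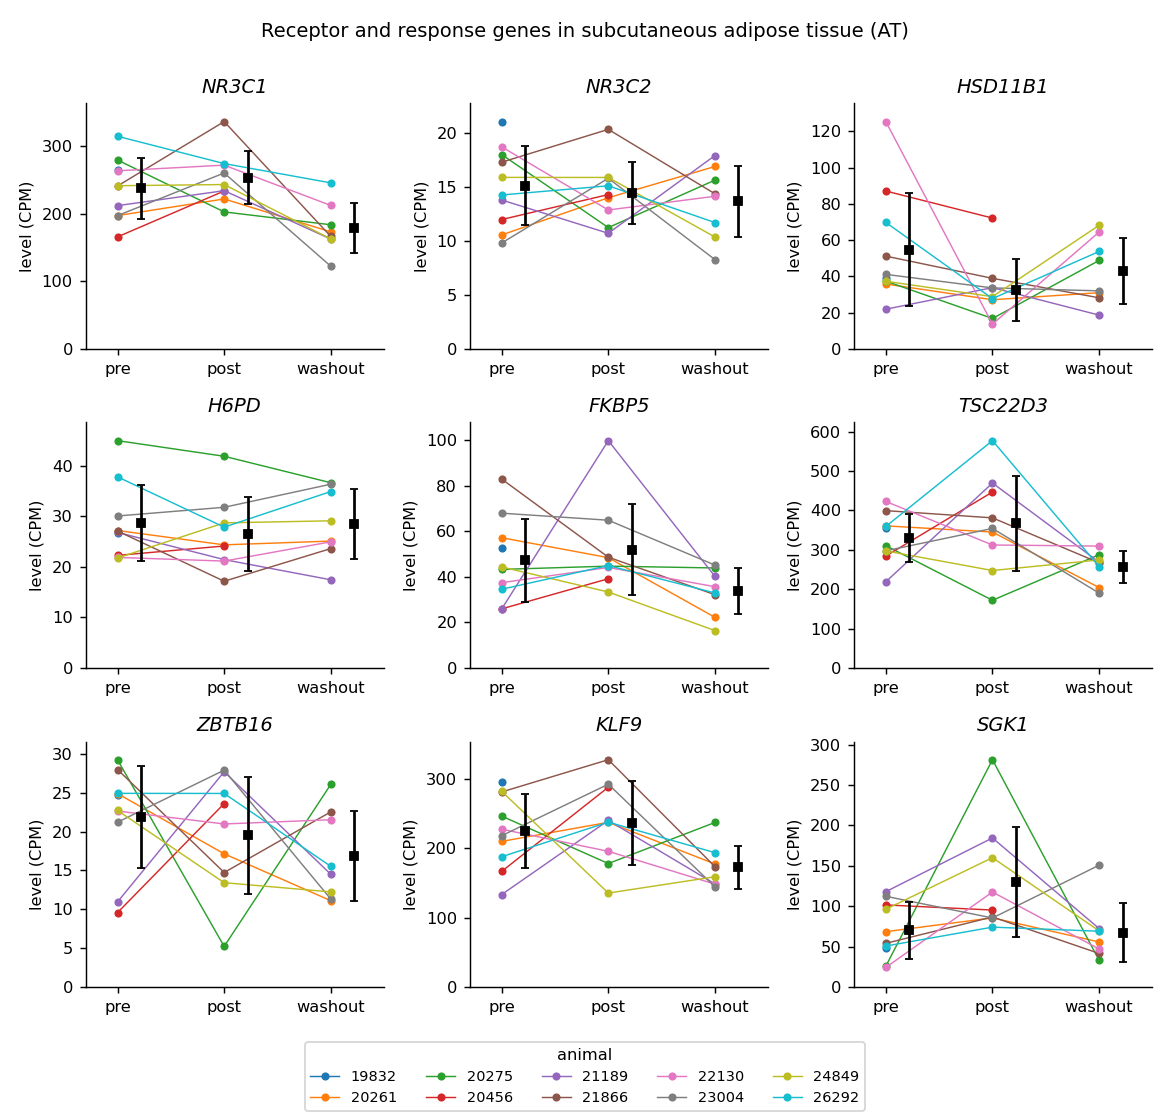
Level (CPM, vertical axes from 0) of the 9 members in AT before dosing, after dosing and at washout. Circles joined by lines are single animals, black squares with bars are the mean ± SD of the time point. NR3C1 and FKBP5 fell from post-treatment to washout in 8 of 8 animals, and SGK1 in 7 of 8.

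From post-treatment to washout 5 of 9 members were DE in AT, all lower, against a background of 35.4% of genes DE in either direction and 17.8% DE and lower. They were the glucocorticoid receptor itself and 4 of the 5 response genes, while both enzymes, the mineralocorticoid receptor and ZBTB16 did not pass.

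NR3C1 had a lowest, median and highest level of 203, 243 and 336 CPM post-treatment and of 122, 169.7 and 246 CPM at washout. The groups overlapped: the washout libraries of animals 22130 (212 CPM) and 26292 (246 CPM) lay above the lowest post-treatment library. Animal 26292 was also the highest for the gene pre-treatment, at 315 CPM. Within each animal the receptor was lower at washout in 8 of 8, at -0.56 ± 0.11 (log2, SE; adjusted p = 5.85e-04 by edgeR). Within the last identifier series, the 7 post-treatment libraries ranged from 203 to 336 CPM and the 4 washout libraries from 122 to 173 CPM, and within the middle series the 2 and 3 libraries ranged from 234 to 260 CPM and from 163 to 212 CPM. Neither series had an overlap, but these groups are small, and the share of all genes without overlap within a series was not counted. The call of NR3C1 held without each of the 10 animals in turn, with adjusted p-values up to 0.00254.

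FKBP5 was at 33.4, 45.0 and 99.9 CPM post-treatment and at 16.4, 34.4 and 45.2 CPM at washout. Its median post-treatment level lay next to the highest washout level, and it was lower at washout in 8 of 8 animals, at -0.69 ± 0.22 on the log2 scale (SE, adjusted p = 0.0184 by edgeR). This call also held without each animal in turn, with adjusted p-values up to 0.0415. SGK1 fell from 74.2, 95.3 and 281 CPM to 33.1, 62.5 and 151 CPM, with a fitted log2 value of -0.999 ± 0.34 (SE), lower in 7 of 8 animals (adjusted p = 0.0258 by edgeR). TSC22D3, which encodes the anti-inflammatory protein GILZ, went from 172, 354 and 577 CPM to 190.2, 268 and 309.5 CPM (log2 fold change -0.47 ± 0.18 SE, adjusted p = 0.0474 by edgeR, lower in 6 of 8 animals). KLF9, a transcription factor of the Krüppel-like family, went from 136, 238 and 328 CPM to 145, 166 and 238 CPM (log2 fold change -0.45 ± 0.17 SE, adjusted p = 0.0407 by edgeR, lower in 6 of 8 animals). For both, the washout libraries lay inside the post-treatment range and it was the upper part of that range that was missing at washout. The calls of these 3 were less firm: that of SGK1 was lost on leaving out any 1 of 4 animals (21189, 21866, 22130 or 24849), that of TSC22D3 with any 1 of 6 animals and that of KLF9 with any 1 of 7, with adjusted p-values up to 0.0665, 0.147 and 0.115. SGK1 also lost its call with voomWithQualityWeights (-0.62, adjusted p = 0.0590) and with the identifier series as a covariate in edgeR (-0.83, adjusted p = 0.0608).

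When only libraries of the last identifier series were fitted, 0 of the 9 members were DE from post-treatment to washout. Calls over all genes numbered 2224 in that fit and 4731 with all series. The fitted values in the last series were -0.53 for NR3C1, -1.02 for FKBP5 and -1.25 for SGK1, with adjusted p-values of 0.0623, 0.0742 and 0.0680 by edgeR. Markers of macrophages, which also carry the glucocorticoid receptor, moved over the same interval: 8 of 8 were DE and lower, and their summed level in AT had a lowest, median and highest value of 875, 2425 and 5096 CPM post-treatment and of 329.9, 582 and 2005 CPM at washout, after 575, 1169.5 and 2175 CPM pre-treatment. Progenitor and fibroblast markers were DE and lower for 3 of 6. Other markers were DE and higher: 2 of 3 tested for erythroid cells, whose summed level had a median of 852 CPM post-treatment and 5107 CPM at washout, 2 of 4 for endothelial cells and 2 of 5 for adipocytes. The part of any of them in the change of the members was not tested, and in bulk tissue fewer cells of a type and less RNA per cell cannot be told apart.

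Washout was also compared with pre-treatment, to ask whether AT returned to its starting levels. Of the 9 members 1 was DE, NR3C1, against a background of 20.5% in either direction and 7.96% lower. NR3C1 had been at 166, 241 and 315 CPM pre-treatment, and its washout level was lower in 8 of 8 animals (log2 fold change -0.43 ± 0.10 SE, adjusted p = 0.00563 by edgeR). That call held without each animal in turn (adjusted p up to 0.0172). All 9 fitted changes were below 0, where the median over all genes was -0.02 and the share of genes below 0 was not counted. With library size alone, those of NR3C2, H6PD and SGK1 were above 0. FKBP5 was at -0.55 ± 0.22 (SE), lower in 6 of 8 animals, with an adjusted p of 0.0829 by edgeR and of 0.0494 by DESeq2. SGK1, in contrast, was at -0.06 ± 0.33 (SE) with 4 animals higher and 4 lower. NR3C2 ranged from 9.82 to 21.1 CPM pre-treatment, from 10.7 to 20.4 CPM post-treatment and from 8.28 to 17.9 CPM at washout, and H6PD from 21.8 to 45.0, from 17.2 to 41.9 and from 17.5 to 36.7 CPM. Neither gene passed the test in any comparison in AT.

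**Figure D2:**
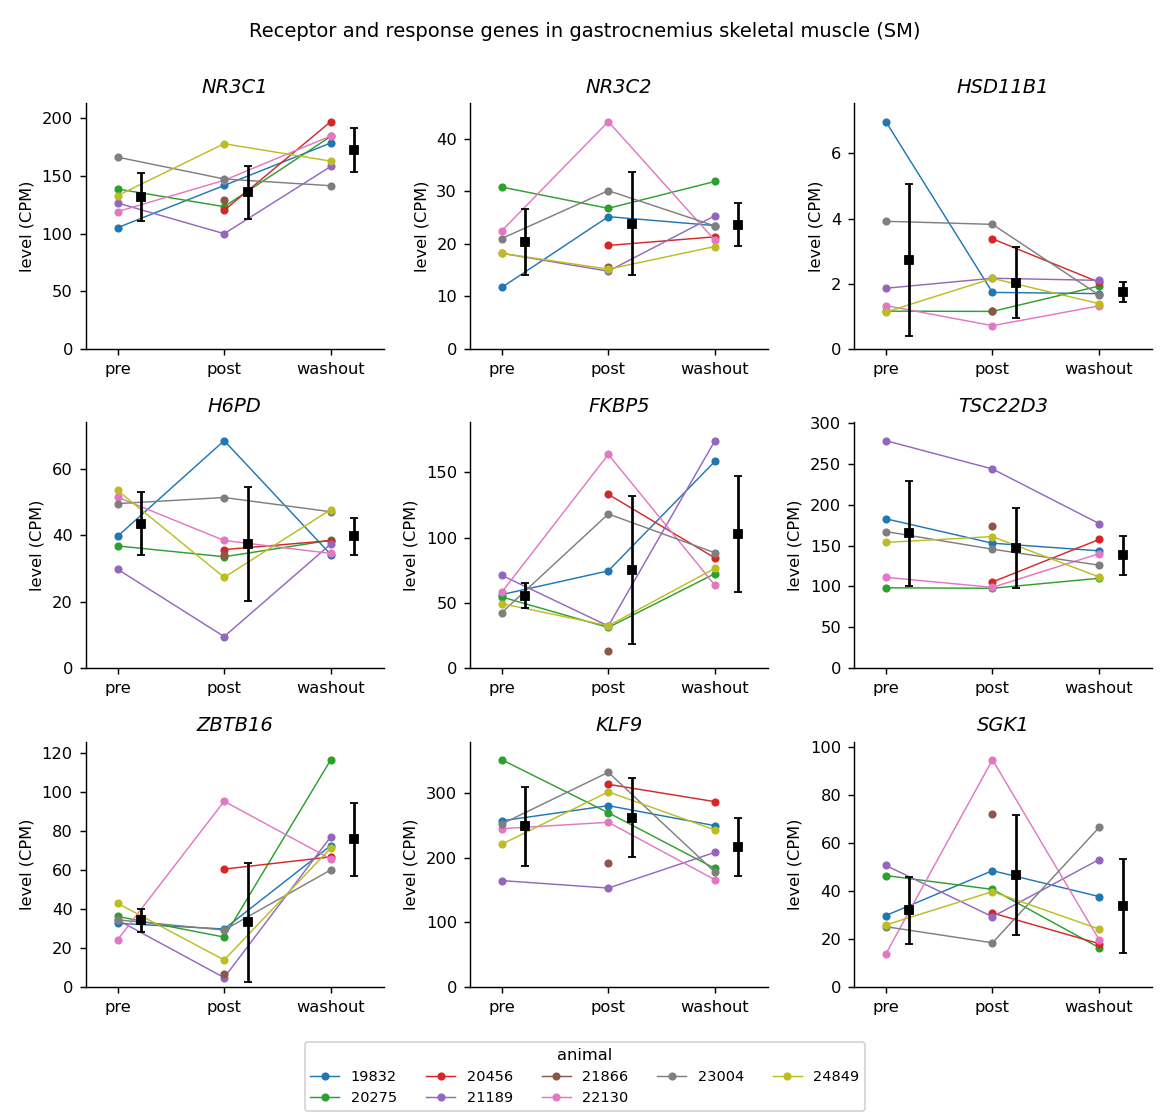
Level (CPM, vertical axes from 0) of the 9 members in SM, drawn as for AT. The post-treatment libraries spread most for FKBP5 (13.4 to 164 CPM) and ZBTB16 (4.83 to 95.1 CPM), and the ZBTB16 libraries at washout all lie above those pre-treatment.

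In SM the same comparisons called 0 of 9 members by edgeR in each of the 3, where the background of all 12617 genes tested was 0% post-treatment vs pre-treatment, 0.19% washout vs post-treatment and 0.0634% washout vs pre-treatment. At an unadjusted p under 0.05 there were 0, 2 and 2 members. DESeq2 called 0, 1 and 0 and voomWithQualityWeights 0, 0 and 1, the called member being ZBTB16 in both. Of all genes, DESeq2 called 0, 359 and 179 and voomWithQualityWeights 0, 17 and 674.

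ZBTB16 had a lowest, median and highest level of 24.1, 34.4 and 42.9 CPM pre-treatment, of 4.83, 27.4 and 95.1 CPM post-treatment and of 60.0, 71.2 and 116 CPM at washout. The washout and pre-treatment libraries did not overlap, which held for 1.2% of genes in the higher direction, and the gene was higher at washout in 6 of 6 animals. The log2 fold change was 1.04 ± 0.45 (SE) with an adjusted p of 0.340 by edgeR, and in the fit of only these 2 time points it was 1.19 with an adjusted p of 0.0342. Against post-treatment it was 1.30 ± 0.45 (SE, adjusted p = 0.181 by edgeR), higher in 6 of 7 animals, and 0.98 without animal 21189. Post-treatment, the 3 libraries of the last series were at 4.83 to 13.9 CPM and the 5 of the first series at 25.6 to 95.1 CPM. Within the last series alone, the 2 pre-treatment libraries were at 32.6 to 36.2 CPM and the 6 washout libraries at 60.0 to 116 CPM. With the series as a covariate, the log2 fold change from post-treatment to washout was 2.07 for ZBTB16 (adjusted p = 0.0385 by edgeR) and 0.82 for H6PD (adjusted p = 0.0420). In that fit 2 members were DE, as were 2650 of all genes, in place of 24 without the covariate. With only the last series fitted, 2 animals gave both libraries and 3026 of all genes were DE. The log2 fold change was then 3.14 for ZBTB16, 1.82 for FKBP5 and 1.36 for H6PD (adjusted p = 0.00441, 0.0155 and 0.0176 by edgeR, on 2 residual degrees of freedom). Among the 2 animals with both libraries is 21189, whose post-treatment library stands apart. Without it, in a fit added after the data were seen, 0 members and 0 of all genes were DE with the covariate. The values were then 1.44 for ZBTB16 (adjusted p = 0.299 by edgeR), 0.53 for H6PD and 0.59 for FKBP5. Within the last series, leaving it out kept 1 animal with both libraries and 1 residual degree of freedom, and 1666 of all genes were DE. The values there were 2.34 for ZBTB16 (adjusted p = 1.2e-04 by edgeR), 1.22 for FKBP5 (0.0433) and 0.79 for H6PD (0.129). With all series pooled and no covariate, the values without it were 0.12 for FKBP5 and -0.053 for H6PD. Of the erythroid markers, 0 of 3 tested were DE in SM in any of the 3 comparisons by edgeR, but their sum had a median of 39.2 CPM pre-treatment, 55.3 CPM post-treatment and 839 CPM at washout, with ranges that overlapped, and its part in these values was not tested.

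FKBP5 showed a similar spread in SM, with 42.4, 55.4 and 71.1 CPM pre-treatment, 13.4, 53.4 and 164 CPM post-treatment and 63.3, 84.3 and 174 CPM at washout. The SD of its log2 CPM over the post-treatment libraries was 1.28, larger than for 92.0% of the 11144 genes whose mean reached 1 CPM, and that of ZBTB16 was 1.46, larger than for 94.6%. Pre-treatment the 2 SDs were 0.25 and 0.27. Post-treatment, the 3 libraries of the last series were at 13.4 to 32.4 CPM for FKBP5. The 5 of the first series were at 31.1 to 164 CPM, and the part of the series in this spread was not tested. FKBP5 was higher at washout than pre-treatment in 6 of 6 animals, at 0.79 ± 0.39 on the log2 scale (SE, adjusted p = 0.392 by edgeR). NR3C1 was at 105, 129.8 and 166 CPM pre-treatment, 99.96, 135 and 178 CPM post-treatment and 142, 179 and 197 CPM at washout. Its washout level was higher than pre-treatment in 5 of 6 animals (log2 fold change 0.39 ± 0.15 SE, adjusted p = 0.299 by edgeR). The remaining members had fitted log2 fold changes between -0.49 and 0.56 in SM, and HSD11B1 stayed low throughout, from 0.713 to 6.97 CPM.

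**Figure D3:**
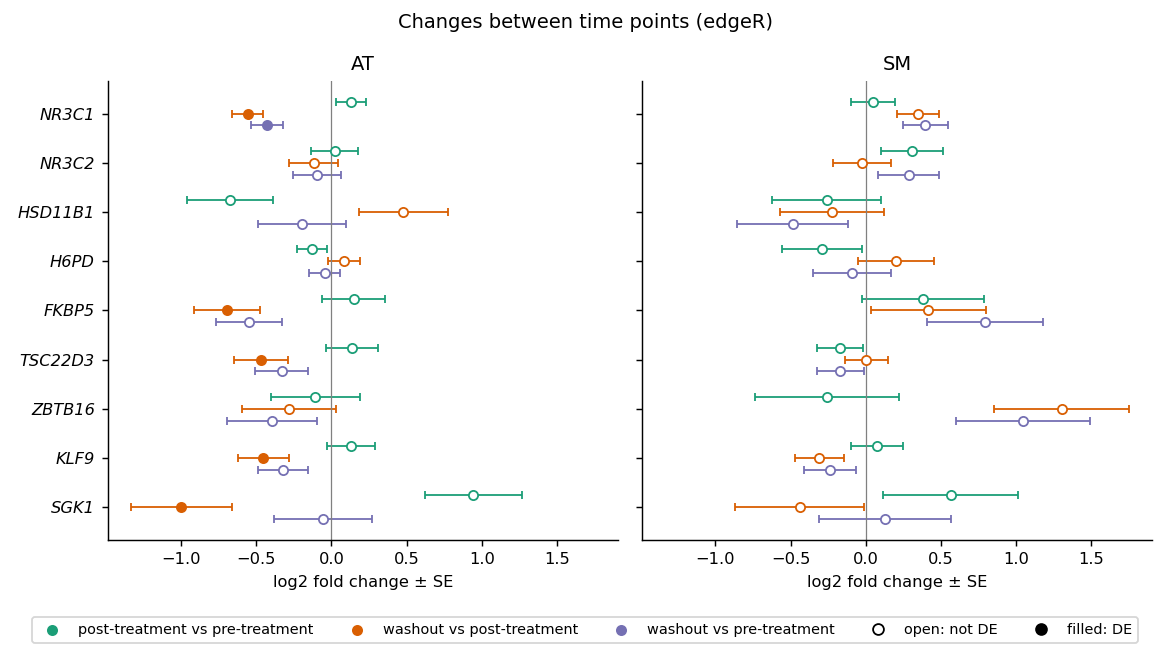
Log2 fold change (horizontal axis, point with a bar of ± SE) of each member between time points in AT (left) and SM (right), on 1 scale. Filled points are DE by edgeR: 5 for washout vs post-treatment and 1 for washout vs pre-treatment in AT, and none in SM.

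Because a call in one tissue and none in the other does not show a difference, the change in AT minus the change in SM was tested directly in 1 fit of both tissues. From post-treatment to washout 2 of 9 members differed, against a background of 22.7% of the 12322 genes tested in both (10.8% with the lower change in AT). NR3C1 differed by -0.92 ± 0.17 (log2, SE, adjusted p = 2.03e-04 by edgeR), from a fall of 0.56 in AT and a fitted 0.35 in SM. ZBTB16 differed by -1.60 ± 0.56 (SE, adjusted p = 0.0395 by edgeR). From pre-treatment to washout 2 of 9 differed, against 17.5% of genes (8.38% with the lower change in AT). NR3C1 differed by -0.88 ± 0.17 (SE, adjusted p = 4.2e-04 by edgeR) and FKBP5 by -1.41 ± 0.44 (SE, adjusted p = 0.0248 by edgeR). From pre-treatment to post-treatment 0 of 9 differed by edgeR, against a background of 0.0487%. The 2 comparisons at washout share their washout libraries. NR3C1 stayed called in both when any 1 animal was left out. ZBTB16 lost its call without any 1 of animals 19832, 20261, 21189, 23004, 24849 and 26292, and without 21189, whose SM library stood apart, its difference was -1.15 (adjusted p = 0.143 by edgeR). FKBP5 lost its call without any 1 of animals 19832, 20261, 21866, 23004 and 24849.

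The members also differ in the length of genome they span. By the reference table, which is of another assembly than the counts, 5 of the 9 lie in the longest of 5 equal classes of genes by span (NR3C1, NR3C2, FKBP5, ZBTB16 and SGK1). In AT the median log2 fold change from post-treatment to washout was -0.08 in that class and 0.02 in the shortest class, and in SM it was 0.10 and -0.17. With a correction for span in each library, chosen after the data were seen, NR3C1 remained DE in AT at -0.47 (adjusted p = 5.08e-04 by edgeR) and its difference between tissues was -0.65 (adjusted p = 0.00125 by edgeR). FKBP5, KLF9 and SGK1 remained DE in AT as well, while TSC22D3 was at -0.41 in place of -0.47 and lost its call (adjusted p = 0.0839 by edgeR). The differences between tissues of ZBTB16 (-1.37 in place of -1.60) and FKBP5 (-1.12 in place of -1.41) also lost theirs, with adjusted p = 0.0773 and 0.0668 by edgeR.

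**Figure D4:**
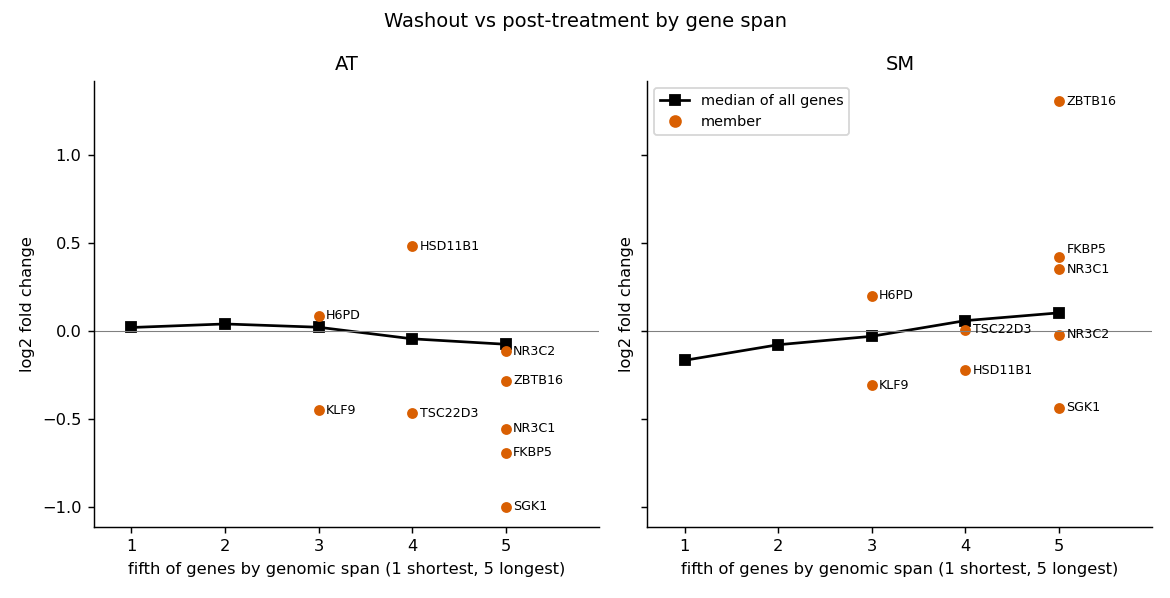
Log2 fold change from post-treatment to washout (vertical axis) against the class of genes by genomic span (horizontal axis, 1 the shortest and 5 the longest) in AT (left) and SM (right). Black squares are medians of all genes and orange circles the members; the medians fall from 0.02 to -0.08 in AT and rise from -0.17 to 0.10 in SM.

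The wider pathway was described by 6 lists of 138 entries, chosen with earlier results of these data known, of which 119 genes were tested in AT. From pre- to post-treatment 4 rose and 10 fell, 11.8% of those tested against 15.5% of all genes, with a median log2 fold change of 0.04 against 0.03 over all genes. From post-treatment to washout 16 rose and 31 fell, 39.5% of those tested against 35.4% of all genes, with a median of -0.14 against -0.0021. From pre-treatment to washout 8 rose and 13 fell, 17.6% against 20.5% of all genes. In SM 0 of 111 were DE by edgeR in each comparison, where 6, 20 and 21 had an unadjusted p under 0.05. DESeq2 called 0, 4 and 6 of them and voomWithQualityWeights 0, 0 and 15. Over all genes these tools called 0, 359 and 179 and 0, 17 and 674.

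**Figure D5:**
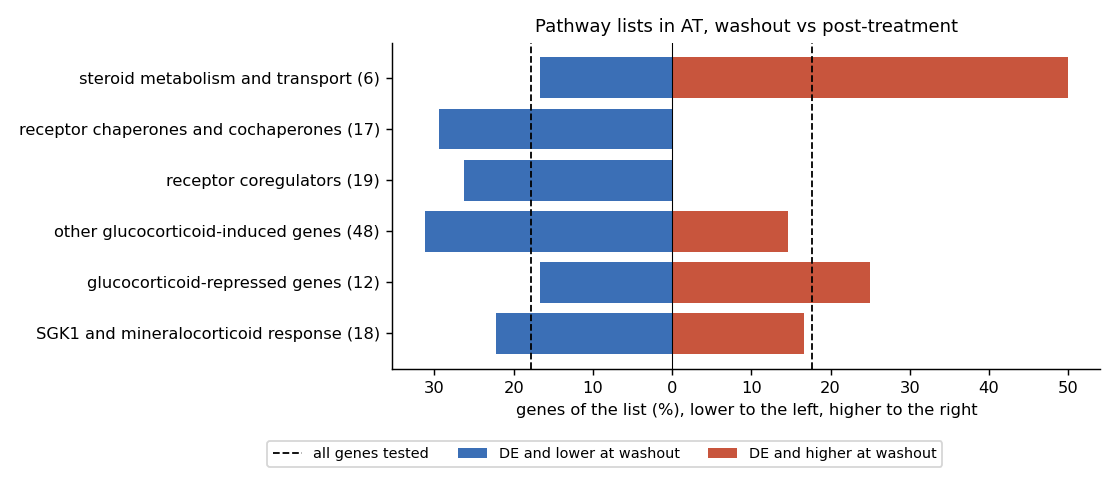
Share of the tested genes of each list (percent, horizontal axis) that were DE and lower (blue, to the left) or higher (red, to the right) at washout than post-treatment in AT, with the number tested in brackets. Dashed lines mark the shares over all genes (17.8% lower and 17.6% higher), and a gene in more than 1 list counts in each.

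PDK4, which restrains glucose oxidation and is a classical glucocorticoid target, rose in AT from 231 ± 90.0 CPM pre-treatment to 469 ± 132 CPM post-treatment (SD, n = 10 and 9; log2 fold change 1.12 ± 0.19 SE, adjusted p = 0.00235 by edgeR) in 9 of 9 animals. PDK4 was the only 1 of the 48 tested genes on the list of other glucocorticoid-induced genes that was DE and higher. On that list 5 were DE and lower, LPIN1 and G0S2 among them, and 12.5% were DE against 15.5% of all genes. The other genes named as risen by the rule were KCNJ1, a potassium channel (log2 fold change 1.07), ABCB1, an efflux pump that exports steroids (0.67), and NEDD4L, a ubiquitin ligase that SGK1 phosphorylates (0.35). Those named as fallen were AKR1C1, a steroid dehydrogenase (-1.42), LPIN1, a phosphatidate phosphatase (-1.38), SGK2, a kinase related to SGK1 (-1.22), and G0S2, an inhibitor of lipolysis (-0.86), each in 9 of 9 animals. Over the same interval 3 of 5 adipocyte markers were DE and lower (median log2 fold change of the list -0.62), 3 of 8 macrophage markers were DE and higher (0.82) and 2 of 6 progenitor and fibroblast markers were DE and higher (0.30), and their part in these changes was not tested. AKR1C1 belongs to a family of near-identical genes, so that its counts are uncertain.

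Several of these turned back at washout. LPIN1 rose by 1.58, AKR1C1 by 1.44 and SGK2 by 1.09 (log2, adjusted p = 6.41e-04, 0.00115 and 0.00937 by edgeR), and KCNJ1 changed by -1.80. CYP17A1, a steroid-synthesis enzyme near 1 CPM, rose by 1.29. PCK1, which makes phosphoenolpyruvate for glyceroneogenesis, was at -1.94, LCN2 at -2.03 and TFCP2L1 at -1.69, with LCN2 at a mean of 4.11 ± 7.71 CPM post-treatment (SD, n = 9). Each list is small, and the list names state what the genes are known for, not what moved. Of the chaperones of the receptor, 5 of 17 were DE at this interval, all lower (PTGES3 -0.28, FKBP4 -0.31, DNAJA1 -0.31, HSPA1A -0.78 and HSPA4 -0.33), as were 5 of 19 coregulators (NCOA1 -0.29, NCOA2 -1.18, NCOA4 -0.33, NCOR1 -0.76 and MED1 -0.43). These shares of 29.4% and 26.3% lay below the 35.4% of all genes DE in either direction and above the 17.8% DE and lower, and the other 12 chaperones and 14 coregulators did not pass. These 10 genes were named after their values were seen. At washout compared to pre-treatment the named genes were IL6 (1.18), LIF (0.78), SCNN1A (0.76) and SLC19A2 (0.58) higher, and NCOA2 (-1.16), CD163 (-0.79), NCOR1 (-0.79) and GADD45B (-0.53) lower. IL6 and LIF, of the list of glucocorticoid-repressed genes, were low. Their means were 1.09 and 1.65 CPM pre-treatment and 2.19 and 3.01 CPM at washout. IL6 was higher in 6 of 8 animals and LIF in 8 of 8. CD163 marks macrophages, and of the 8 macrophage markers 5 were DE and lower at washout than pre-treatment. The part of these cells in the fall of CD163 was not tested.

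Whether the response genes moved together was asked across animals in AT, as the correlation of each member's change with that of FKBP5 over 16 relations. The highest Pearson's r was 0.68 for TSC22D3 from pre- to post-treatment (n = 9 animals, exact permutation p = 0.0374, adjusted p = 0.368), the corresponding Spearman's rho was 0.57 (exact permutation p = 0.121, adjusted p = 0.482), and r was 0.51 without the 2 animals farthest from the median change of FKBP5. No relation had an adjusted p under 0.05. Across all 27 AT libraries the log2 CPM of FKBP5 was most like those of JDP2 (Spearman's rho 0.78), GOLPH3 (0.75) and DCLK1 (0.74), and that of NR3C1 was most like KIAA1109 (0.91), UTRN (0.91) and IPO5 (0.89). Of the members, KLF9 was nearest to FKBP5 in AT, at a rho of 0.64 and rank 40 of 12138 genes. In the 21 SM libraries FKBP5 was most like RPS6KA3 (0.94), MPDZ (0.92) and KPNA1 (0.92), and NR3C1 most like DENND4C (0.89), PIK3CA (0.83) and AVL9 (0.83). These values describe libraries that share animals, time points and identifier series.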

How the data were processed

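STAR was the aligner of the authors and MacaM their genome. They deposited raw counts per gene from stranded, poly(A)-selected paired-end reads, without normalization, and the counting tool is not given in the sources used here. The 16103 entries held 70 repeats of a gene, which were dropped. Of 51 labelled samples, 3 in SM have no column of counts and were not analysed. Members and lists were chosen with earlier results of these data known.

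Genes reaching 0.5 CPM in 10% of a tissue's libraries entered edgeR 4.0.16 in R 4.3.3 (TMM, robust quasi-likelihood, model of time point and animal, 1 fit per tissue, Benjamini-Hochberg adjustment). SE is the log2 fold change divided by the root of F. Animal is the block (a paired design): over 25 same-animal pairs of AT libraries the median correlation of deviations from the time point means was 0.389, and over 19 SM pairs it was 0.290. With animal in the model, edgeR p-values rest on how much changes within animals vary between animals, not on differences in their levels. Exact permutation tests used scipy 1.17.1. The method was tested on simulated data.

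All 9 members are named in every comparison. Of the lists, the 4 DE genes per direction with at least 1 CPM and the largest change are named. Alternatives were DESeq2 1.42.0, limma 3.58.1, library size, filters (none, or at least 10 counts in every library), no fold change limit, no block, 2 time points only, identifier series, AT without the pre-treatment library of animal 20275, each animal left out and, added after the data were seen, gene span, edgeR's earlier method and the SM series fits without animal 21189. Except HSD11B1 in SM (as few as 10 counts), every member had at least 104 counts in each library.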

Additional observations from a re-analysis of the deposited data

Results flagged for a closer look

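Of 54 groups of libraries (9 members in 6 groups), 3 held a library whose gap to its neighbour was large against the range of the group by Dixon's test on log2 CPM. Chance gives about 2.7. They were H6PD in SM post-treatment in animal 21189 (9.45 CPM, the nearest library being at 27.3 CPM), ZBTB16 in AT post-treatment in animal 20275 (5.23 against 13.4 CPM) and ZBTB16 in SM washout in animal 20275 (116 against 77.0 CPM). The first is the SM library with the lowest sum of muscle markers at that time point, and its part in the value was not tested.

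The change differed between AT and SM by a test of the difference itself for NR3C1 from post-treatment to washout (-0.92, log2 change in AT minus that in SM) and from pre-treatment to washout (-0.88), for ZBTB16 from post-treatment to washout (-1.60) and for FKBP5 from pre-treatment to washout (-1.41). Of all genes tested, 22.7% differed between the tissues from post-treatment and 17.5% from pre-treatment to washout.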

How the results depend on the processing

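In AT, members DE from pre- to post-treatment (0) numbered 1 with library size alone, DESeq2 or voomWithQualityWeights, and 0 to 1 without each animal in turn. From post-treatment to washout (5) they numbered 4 with voomWithQualityWeights, the series as a covariate or the span correction, 3 with library size alone, 2 with only these time points, 0 in the last identifier series and 2 to 5 without each animal. From pre-treatment to washout (1) they numbered 2 with DESeq2, 4 with only these time points (NR3C1, TSC22D3, ZBTB16 and KLF9), 0 in the last series and 1 to 2 without each animal. In the last series, all genes DE in AT numbered 810, 2224 and 1125 in these comparisons, in place of 2068, 4731 and 2735. In SM from post-treatment to washout (0) members DE numbered 1 with DESeq2 and 2 with the series as a covariate (ZBTB16 and H6PD). They numbered 3 in the last series (ZBTB16, FKBP5 and H6PD, with 2 animals giving both libraries). Without animal 21189 they numbered 0 with the series and 2 in the last series. All genes DE there numbered 359 with DESeq2, 2650 with the series and 3026 in the last series, in place of 24. Without animal 21189 all genes DE numbered 0 with the series and 1666 in the last series. From pre-treatment to washout (0) members DE in SM numbered 1 with voomWithQualityWeights or only these time points. Differences between tissues at washout vs post-treatment (2) numbered 3 with DESeq2, 4 with the series, 1 with the span correction and 1 to 3 without each animal. At washout vs pre-treatment (2) they numbered 3 with DESeq2 or the series, 1 with the span correction and 1 to 3 without each animal. Over all genes the series gave 3833 differences at washout vs pre-treatment, in place of 2157. Correlations passing (0) numbered 0 to 1 without each animal. The causes were not tested.

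Log2 fold changes that turned in sign were mostly near 0, and none of the genes concerned was DE in that comparison. Without the replicate block (an unpaired fit) NR3C2 in AT from pre- to post-treatment was -0.065, TSC22D3 in SM from post-treatment to washout -0.10, and NR3C1 between tissues -0.0085. No member gained or lost a call in the time point and tissue comparisons, while all genes DE in SM numbered 224 in place of 24 from post-treatment to washout and 41 in place of 8 from pre-treatment (DESeq2 gave 359 and 179, voomWithQualityWeights 674 in the latter). In AT from pre-treatment to washout, library size alone gave 0.014 for NR3C2, 0.060 for H6PD and 0.045 for SGK1, only these time points 0.034 for SGK1, the span correction 0.067 for NR3C2 and 0.020 for SGK1, and the last series 0.17 for NR3C2. The last series also gave -0.063 for NR3C2 and -0.0076 for KLF9 from pre- to post-treatment, and 0.23 for NR3C2, -0.19 for HSD11B1 and -0.025 for H6PD from post-treatment to washout. In SM from post-treatment to washout, TSC22D3 was -0.12 with library size alone, -0.10 with the series, -0.056 with the span correction and -0.52 in the last series, and NR3C2 was 0.011 with only these time points, 0.27 with the series and 0.55 in the last series, where KLF9 was 0.046 and SGK1 0.054. Without animal 21189, NR3C2 was 0.18 and TSC22D3 -0.044 with the series, and NR3C2 0.35, TSC22D3 -0.55 and NR3C1 -0.14 in the last series. From pre-treatment to washout, H6PD was 0.37 with the series and SGK1 -0.61 in the last series. From pre- to post-treatment, ZBTB16 was 0.36 with voomWithQualityWeights, and the last series gave -0.066 for NR3C2, -0.90 for FKBP5, 0.39 for TSC22D3, -0.57 for KLF9 and -0.66 for SGK1.

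Leaving out each animal turned these values, given as ranges. In AT from pre- to post-treatment they were FKBP5 (-0.062 to 0.27), NR3C2 (-0.070 to 0.10) and ZBTB16 (-0.30 to 0.086), and from pre-treatment to washout H6PD (-0.10 to 0.014) and SGK1 (-0.16 to 0.017). In SM from pre- to post-treatment they were HSD11B1 (-0.46 to 0.15), NR3C1 (-0.029 to 0.16) and ZBTB16 (-0.76 to 0.13), from post-treatment to washout H6PD (-0.053 to 0.43), NR3C2 (-0.15 to 0.16) and TSC22D3 (-0.090 to 0.091), and from pre-treatment to washout SGK1 (-0.17 to 0.46). Between tissues they were NR3C1 (-0.074 to 0.14), SGK1 (-0.10 to 0.50) and TSC22D3 (-0.041 to 0.40).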

Other observations

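The muscle library of animal 22130 post-treatment was the highest of its group for FKBP5 (164 CPM), ZBTB16 (95.1 CPM), NR3C2 (43.3 CPM) and SGK1 (94.6 CPM), and it also had the highest sum of erythroid markers (4276 CPM, against a median of 55.3 CPM). The part of these cells in the levels was not tested.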
